A study of Homo sapiens with 8 samples.

Results

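The HOX genes of the 4 human clusters were examined in HEK293T cells given 3-deazaneplanocin A (DZNep). Every gene of the count table whose symbol was HOXA, HOXB, HOXC or HOXD followed by a number was taken, which gave 39 of the 57500 counted genes, 11 in cluster A, 10 in cluster B, 9 in cluster C and 9 in cluster D. HEK293T is an established line grown from human embryonic kidney that carries the SV40 large T antigen. The 4 DZNep libraries came from cells held in 100 µM DZNep for 48 h, and the 4 Control libraries from vehicle-treated cells, also at 48 h. Both groups were the same line with no engineered difference between them, so the comparison describes a single dose and time in a single transformed line. DZNep is an adenosine analogue that blocks adenosylhomocysteine hydrolase, so that S-adenosylhomocysteine builds up and methyl transfer by many methyltransferases falls.

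HOX genes encode homeodomain transcription factors that give cells positional identity along the body axis. In each cluster the genes share 1 direction of transcription, and members with low paralog numbers lie at the 3′ end and act in more anterior tissue, whereas members with high numbers lie at the 5′ end and act in more posterior tissue and in the limbs and urogenital tract. Polycomb complexes, which place trimethylation on lysine 27 of histone H3, hold silent HOX genes off, and MLL-family complexes keep active ones on. Genes with the same number in different clusters are paralogs that arose when an ancestral cluster was duplicated.

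Total counts ran from 25043058 in Control library 1 to 44902779 in DZNep library 2, and 19171 genes had enough reads to be tested. Of these, 10.6% were called higher with DZNep and 13.5% lower, and the median log2 fold change was -0.03. A gene was called when edgeR's adjusted p was under 0.05 and its log2 fold change was beyond 1 in either direction. Levels are given as normalized counts, which are counts divided by a size factor for each library, as mean ± SD over n = 4 libraries. The defining kidney markers UMOD and CDH16 were at or near 0 in all 8 libraries, and of the developmental kidney genes GATA3 and PAX2 had mean normalized counts of 1699 and 343 in Control. LHX1 and OSR1 were the kidney genes called lower with DZNep (-1.43 and -1.16 on the log2 scale), and GATA3 was not called (0.49). The summed level of the 12 kidney markers ran from 5187 to 7118 in Control and from 7365 to 8143 with DZNep, and that of the 8 neural markers from 8209 to 13070 and from 9049 to 9964. The sum of the 8 haematopoietic markers ran from 266.0 to 488 and from 358 to 753, that of the 8 hepatic and intestinal markers from 282 to 539 and from 125 to 202, and that of the 8 fibroblast and endothelial markers from 3520 to 7144 and from 2999 to 7359. The hepatic and intestinal sum was mostly LGR5 (271 to 536 in Control and 72.0 to 166 with DZNep), while ALB, APOA1, AFP, TTR and VIL1 had higher means with DZNep, all under 20 normalized counts in every library. DZNep library 2 stood apart for LYZ, at 450 against 21.6 to 24.8 in the other DZNep libraries, and for COL1A2, at 15.3 against 1072 to 1647, and without it the HOX calls below were again 13 higher and 2 lower. Of the tested markers, 2 of 8 kidney genes and 1 of 1 hepatic and intestinal gene were called lower, 4 of 7 neural genes and 3 of 8 fibroblast and endothelial genes were called higher, and no haematopoietic gene was called (1 of 6 at an unadjusted p under 0.05). The fibroblast and endothelial sum was mostly COL1A1 and COL1A2, neither of which was called. The genes of that set called higher were VWF, CDH5 and LUM (5.19, 4.58 and 2.08 on the log2 scale). Their mean normalized counts were 2.81, 0.771 and 100 in Control and 103, 16.1 and 433 with DZNep. UMOD, HBB and FABP1 had no count in any library. The part of these differences in the HOX values was not tested.

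Promoter windows of 250 bases upstream of the RefSeq gene start (GRCh38.p14) were at hand for 20 of the 39 genes, in 27 windows. Most of the windows are of cluster A, with several of HOXA3. HOXC4 and HOXC5 have the same window, so 26 are distinct. Shown are those of the 4 called genes with the largest fold changes that had a window of their own, 1 that fell and 3 that rose, to be set beside the values that follow. They lie at chr7:27102684-27102933 on the minus strand for HOXA2, chr7:27130758-27131007 on the minus strand for HOXA4, chr7:27165538-27165787 on the minus strand for HOXA9 and chr2:176157057-176157306 on the plus strand for HOXD3. Each is written 5′ to 3′ along the gene, and capitals mark the CCAAT box in either orientation.
HOXA2: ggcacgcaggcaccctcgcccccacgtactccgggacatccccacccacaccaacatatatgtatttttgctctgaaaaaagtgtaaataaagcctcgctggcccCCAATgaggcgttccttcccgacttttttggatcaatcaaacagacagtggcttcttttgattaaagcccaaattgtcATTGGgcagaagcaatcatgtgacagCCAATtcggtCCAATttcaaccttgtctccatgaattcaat
HOXA4: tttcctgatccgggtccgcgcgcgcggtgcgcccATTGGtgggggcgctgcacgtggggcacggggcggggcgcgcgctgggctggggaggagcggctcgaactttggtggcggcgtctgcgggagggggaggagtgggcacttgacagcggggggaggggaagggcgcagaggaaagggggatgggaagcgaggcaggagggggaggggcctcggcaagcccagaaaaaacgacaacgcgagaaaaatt
HOXA9: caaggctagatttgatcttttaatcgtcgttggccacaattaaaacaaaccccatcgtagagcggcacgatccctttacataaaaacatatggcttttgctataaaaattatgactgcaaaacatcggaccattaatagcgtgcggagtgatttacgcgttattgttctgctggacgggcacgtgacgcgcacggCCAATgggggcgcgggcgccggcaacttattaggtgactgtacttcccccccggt
HOXD3: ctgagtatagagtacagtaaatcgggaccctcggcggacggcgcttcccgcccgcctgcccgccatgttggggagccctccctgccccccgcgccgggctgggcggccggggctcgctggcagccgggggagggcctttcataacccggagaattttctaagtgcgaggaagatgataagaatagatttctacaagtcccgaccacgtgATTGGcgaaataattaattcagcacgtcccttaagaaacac
The HOXA2 window held 8 CpG dinucleotides and 4 CCAAT boxes, and the HOXA4, HOXA9 and HOXD3 windows held 26, 20 and 21 CpGs and 1 CCAAT box each. Windows of other genes called higher held 28 CpGs and 1 CCAAT box (HOXA7), 11 and 0 (HOXA11) and 14 and 2 (HOXC5). Among tested genes not called, the HOXD4 window held 4 CpGs, those of HOXA3 from 0 to 26 and that of HOXA13 40. Each of these windows held at most 1 CCAAT box. HOXD9, the other gene called lower, had no window. The letters CCAAT, searched on both strands, were found at least once in 32.0% of the 35116 promoter windows of the RefSeq table and in 18 of the 27 HOX windows, and 4 or more times in 0.874% of all windows. TATAAA was in 10.7% of all windows and 5 of 27 HOX windows, and GGGCGG in 42.6% and 13 of 27. The median CpG count was 19 over the HOX windows and 11 over all windows. These are matches of letters only.

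More HOX genes were called higher than lower with DZNep. Of 38 HOX genes tested, 13 were called higher and 2 lower, beside 10.6% and 13.5% of all genes tested (24.2% in either direction), and 23 were not called. With the replicate number as a term in the fit the counts were again 13 and 2, beside 11.7% and 14.3% of all genes. The median log2 fold change over the 38 was 0.69, against -0.03 over all genes, with 31 values above 0 and 7 below. At an adjusted p under 0.05 with no limit on the fold change, 19 were higher and 2 lower (19.1% and 21.8% of all genes), and with the replicate number in the fit 24 were higher and 3 lower (28.8% and 30.2%). The members that this added were HOXA5, HOXB5, HOXB8, HOXC8 and HOXC9, higher, and HOXD10, lower, all within the fold limit. For 21 members every DZNep value was above every Control value (19.5% of all genes), and for 3, HOXA2, HOXD9 and HOXD10, every DZNep value was below (19.4%). In RNA from whole cultures, fewer cells that express a gene and less of its RNA per cell cannot be told apart. The member not tested was HOXB1, a hindbrain gene at the 3′ end of cluster B, which had no count in 7 libraries and 2 counts in DZNep library 3.

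**Figure D1:**
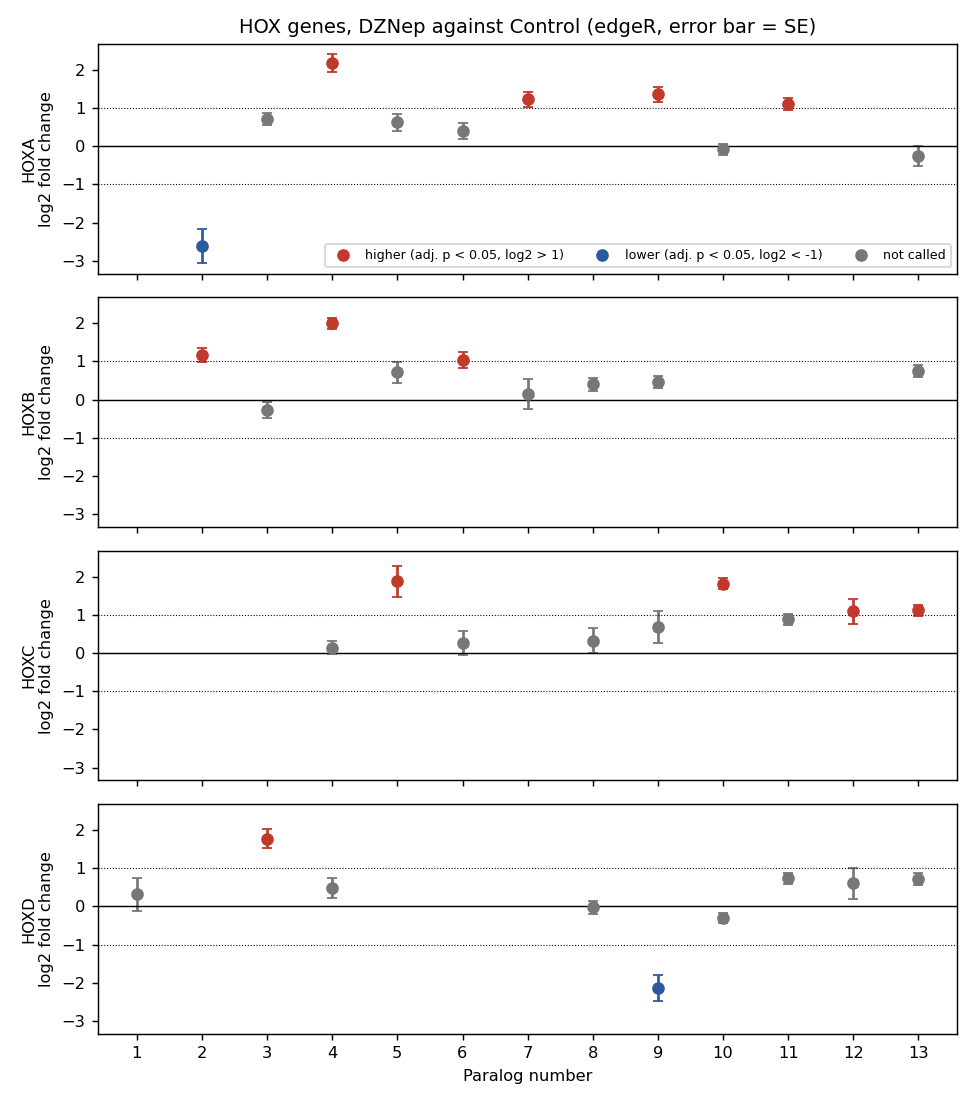
Log2 fold change with DZNep against Control (vertical axis) for 37 of the 38 tested HOX genes by paralog number (horizontal axis), 1 panel per cluster, with bars for the standard error and dotted lines at log2 fold changes of 1 and -1. Red points are called higher, blue points lower and grey points not called. The 2 blue points are HOXA2 at -2.62 and HOXD9 at -2.13, and the highest point is HOXA4 at 2.17.

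Cluster A, on chromosome 7, held both the largest rise and the largest fall. Of its 11 members 5 were called higher and 1 lower, beside 10.6% and 13.5% of all genes. The median log2 fold change of its members was 0.72. HOXA2, which patterns the hindbrain and the skeleton of the second pharyngeal arch, had normalized counts of 94.0, 36.6, 48.4 and 129 in Control libraries 1 to 4 and 12.7, 14.5, 8.64 and 14.6 in DZNep libraries 1 to 4. All DZNep libraries lay below the lowest Control library, and the mean fell from 77.0 ± 42.6 to 12.6 ± 2.79 (log2 fold change -2.62, SE 0.44, edgeR adjusted p = 0.00104), 6.16-fold. The fall was carried by few reads, and the Control libraries themselves ranged from 36.6 to 129. HOXA2 shares no exonic base with another annotated gene.

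HOXA4, which acts in the patterning of cervical vertebrae, had the largest rise of the 38, 4.50-fold. Its normalized counts were 199, 126, 135 and 222 in Control libraries 1 to 4 and 903, 639, 662 and 918 in DZNep libraries 1 to 4 (log2 fold change 2.17, SE 0.23, edgeR adjusted p = 8.66e-05). The lowest DZNep library was above the highest Control library, and 47.8% of its exonic bases are shared with other annotated genes, HOXA-AS2 and HOXA-AS3 among them. HOXA9, a posterior gene known for its part in leukaemias with MLL fusions, had 1284, 1724, 1657 and 1252 in Control libraries 1 to 4 and 3532, 5195, 3170 and 3537 in DZNep libraries 1 to 4 (log2 fold change 1.35, SE 0.19, edgeR adjusted p = 0.000414). DZNep library 2 was the highest for HOXA9, the groups did not overlap, and 27.0% of its exonic bases are shared. HOXA7, which acts in trunk patterning, had 322, 305, 271 and 476 in Control libraries 1 to 4 and 883, 817, 700.5 and 899 in DZNep libraries 1 to 4 (log2 fold change 1.24, SE 0.20, edgeR adjusted p = 0.000747). HOXA11, needed for limb and urogenital development, had 1044, 1048, 952 and 1385 in Control libraries 1 to 4 and 2405, 2727, 1964 and 2614 in DZNep libraries 1 to 4 (log2 fold change 1.10, SE 0.17, edgeR adjusted p = 0.00059). For both genes the groups were apart, and the shared part of their exonic bases was 62.5% for HOXA7 and 27.2% for HOXA11.

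The next members were not called. HOXA3 was higher at an adjusted p under 0.05 but below the fold limit, at 543 ± 75.8 in Control and 909.7 ± 98.2 with DZNep (log2 fold change 0.72, SE 0.15, edgeR adjusted p = 0.00429). HOXA10, among the most abundant members, was at 2794 ± 106 in Control and 2682 ± 372 with DZNep (log2 fold change -0.09, SE 0.14, edgeR adjusted p = 0.649). Its gene body overlaps that of HOXA9, and it shares 26.3% of its exonic bases with other annotated genes. HOXA13, the most 5′ gene, was at 1548 ± 513 in Control and 1323 ± 336 with DZNep (log2 fold change -0.25, SE 0.26, edgeR adjusted p = 0.47). For HOXA10 and HOXA13 the groups overlapped. HOXA5, the highest member of the cluster per length, had 3700, 2052, 2350 and 3854 in Control libraries 1 to 4 and 4505, 5395, 3628 and 5213 in DZNep libraries 1 to 4 (log2 fold change 0.62, SE 0.23, edgeR adjusted p = 0.0546). Only DZNep library 3 lay within the Control range of HOXA5, and the log2 fold change of HOXA6 was 0.39.

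Cluster B lies on chromosome 17 from 48528526 to 48728750 (GRCh38). Of its 9 tested members 3 were called higher and none lower, beside 10.6% and 13.5% of all genes. The median log2 fold change of its members was 0.71. At an unadjusted edgeR p under 0.05, 6 were higher and 0 lower, and DESeq2 called none lower. HOXB4, known for promoting expansion of blood stem cells, had 209.7, 162, 172 and 172 in Control libraries 1 to 4 and 695, 760.3, 688 and 769.5 in DZNep libraries 1 to 4 (log2 fold change 2.00, SE 0.15, edgeR adjusted p = 1.21e-05). The spread within each group was small beside the 4.00-fold difference, and 97.8% of its exonic bases belong to no other gene. HOXB2, a hindbrain gene, had 549, 335, 373 and 349 in Control libraries 1 to 4 and 935, 818, 925 and 982 in DZNep libraries 1 to 4 (log2 fold change 1.17, SE 0.18, edgeR adjusted p = 0.000659). HOXB6, a trunk gene, had 1352, 982, 834 and 1475 in Control libraries 1 to 4 and 2227, 2559, 2030 and 2865 in DZNep libraries 1 to 4 (log2 fold change 1.03, SE 0.20, edgeR adjusted p = 0.00272), and it shares 32.9% of its exonic bases. Groups did not overlap for any of these 3 genes, and the call of HOXB6 was lost without Control library 2, Control library 3 or DZNep library 4.

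HOXB9, the highest HOX gene per length in both groups, had 8892, 6191, 6684 and 6977 in Control libraries 1 to 4 and 11290, 9207, 9018 and 10720 in DZNep libraries 1 to 4 (log2 fold change 0.46, SE 0.16, edgeR adjusted p = 0.0445). Its DZNep libraries were all above its Control libraries, but its fold change was below the limit. HOXB13, a prostate and hindgut gene that lies 98.4 kb from HOXB9, was at 898 ± 181 in Control and 1537 ± 64.1 with DZNep (log2 fold change 0.75, SE 0.16, edgeR adjusted p = 0.00454). HOXB3 was the only tested member of the cluster with a log2 fold change below 0, at 756 ± 195 in Control and 637 ± 96.5 with DZNep (log2 fold change -0.27, SE 0.21, edgeR adjusted p = 0.335). HOXB5, HOXB7 and HOXB8 had log2 fold changes of 0.71, 0.16 and 0.40 and were not called.

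Cluster C lies on chromosome 12 from 53938831 to 54056030. Of its 9 members 4 were called higher and none lower, beside 10.6% and 13.5% of all genes. All 9 fold changes were above 0, with a median of 0.88 on the log2 scale. At an unadjusted edgeR p under 0.05, 5 were higher and 0 lower, and DESeq2 called none lower. HOXC10, a posterior gene with roles in lumbar motor neurons and the hindlimb, had 1666, 1506, 1387 and 1704 in Control libraries 1 to 4 and 6126, 4856, 5180 and 6354 in DZNep libraries 1 to 4 (log2 fold change 1.82, SE 0.15, edgeR adjusted p = 2.23e-05), a 3.53-fold rise. The lowest DZNep library was far above the highest Control library. HOXC13, which controls hair and nail keratins, had 563, 758, 685 and 655 in Control libraries 1 to 4 and 1462, 1465, 1343 and 1619 in DZNep libraries 1 to 4 (log2 fold change 1.12, SE 0.14, edgeR adjusted p = 0.00021). The Control and DZNep libraries of HOXC13 were each close together.

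HOXC5 and HOXC12 were called from few reads. HOXC5, a cervical and thoracic gene, had normalized counts of 6.17, 11.6, 4.48 and 11.8 in Control libraries 1 to 4 and 42.6, 40.3, 20.7 and 25.9 in DZNep libraries 1 to 4 (log2 fold change 1.88, SE 0.41, edgeR adjusted p = 0.00494), but 67.3% of its exonic bases are shared with other annotated genes, the largest share of any member. HOXC12, a posterior gene, had 21.6, 15.2, 23.3 and 23.6 in Control libraries 1 to 4 and 36.3, 36.2, 70.0 and 39.4 in DZNep libraries 1 to 4 (log2 fold change 1.09, SE 0.32, edgeR adjusted p = 0.0214), and its highest value was DZNep library 3. Its call was lost without Control library 2 or DZNep library 3. HOXC11 was at 349 ± 50.1 in Control and 656 ± 27.6 with DZNep (log2 fold change 0.88, SE 0.15, edgeR adjusted p = 0.00106), below the fold limit. HOXC4, the most 3′ gene of the cluster by number and the highest after HOXC10 and HOXC9 per length in Control, was at 1337 ± 298 in Control and 1497 ± 86.7 with DZNep (log2 fold change 0.14, SE 0.17, edgeR adjusted p = 0.554). HOXC6, HOXC8 and HOXC9 had log2 fold changes of 0.26, 0.33 and 0.67. The Control libraries of HOXC9 ran from 462 to 1617, and its adjusted p was 0.226 by edgeR without the replicate number in the fit and 0.000267 with it, with the log2 fold change still below the limit at 0.81.

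Cluster D lies on chromosome 2 from 176092721 to 176190907. Of its 9 members 1 was called higher and 1 lower, shares near the 10.6% and 13.5% of all genes. The median log2 fold change of its members was 0.48. HOXD9, a posterior gene of the trunk and limbs, had 1039, 404, 541 and 1090 in Control libraries 1 to 4 and 162, 141, 169 and 243 in DZNep libraries 1 to 4 (log2 fold change -2.13, SE 0.33, edgeR adjusted p = 0.00069), a 4.38-fold fall. Control libraries 1 and 4 were higher than Control libraries 2 and 3, and all 4 were above every DZNep library. HOXD9 shares no exonic base with another annotated gene. HOXD3, an anterior gene, had 61.7, 42.0, 33.1 and 37.6 in Control libraries 1 to 4 and 160.5, 125, 138 and 181 in DZNep libraries 1 to 4 (log2 fold change 1.78, SE 0.25, edgeR adjusted p = 0.000371), a rise from low counts with no overlap between the groups.

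The genes on either side of HOXD9 were not called. HOXD10, which lies 2.8 kb away on its 5′ side, was at 1569 ± 210.2 in Control and 1293 ± 76.7 with DZNep (log2 fold change -0.31, SE 0.14, edgeR adjusted p = 0.108), with all DZNep libraries below all Control libraries. HOXD8, 4.8 kb away on its 3′ side, was at 502 ± 68.2 in Control and 504 ± 77.6 with DZNep (log2 fold change -0.02, SE 0.17, edgeR adjusted p = 0.939). In cluster A, HOXA3 lies 3.5 kb from HOXA2 and had a log2 fold change of 0.72 beside -2.62. HOXD13, which shapes the digits, was the highest member of cluster D per length, with 3390, 5131, 3733 and 3480 in Control libraries 1 to 4 and 6564, 7147, 6284 and 6270 in DZNep libraries 1 to 4 (log2 fold change 0.71, SE 0.16, edgeR adjusted p = 0.00606). HOXD13 and HOXD11 were both higher at an adjusted p under 0.05 and below the fold limit, and HOXD1, HOXD4 and HOXD12, all with fewer than 100 normalized counts in every library, had log2 fold changes of 0.31, 0.48 and 0.60.

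**Figure D2:**
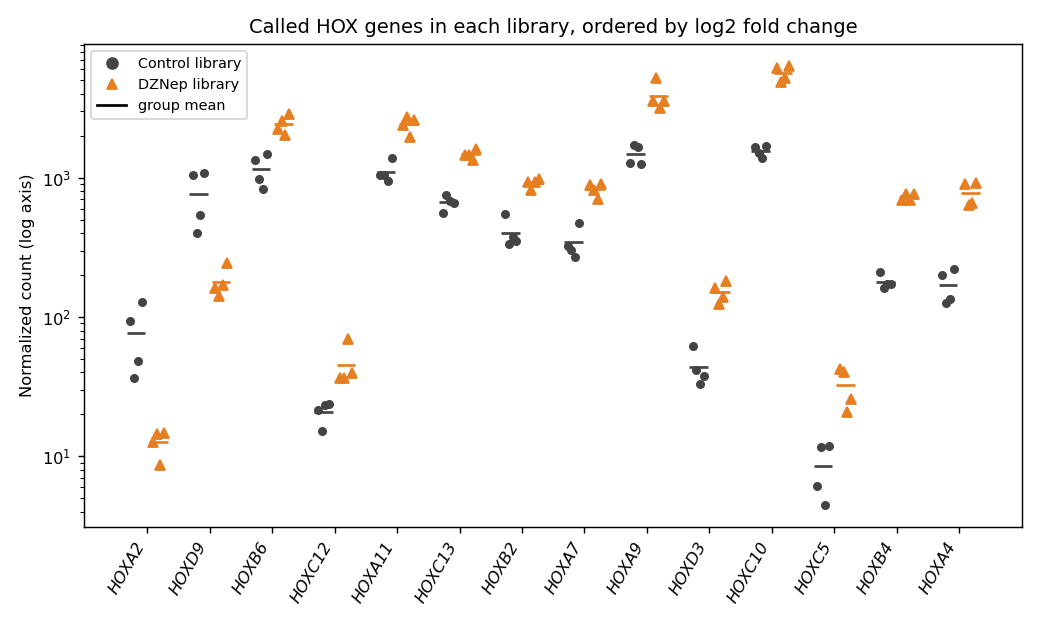
Normalized count (log axis) of 14 of the 15 called HOX genes in each library, ordered by log2 fold change. Grey circles are the 4 Control libraries, orange triangles the 4 DZNep libraries and lines the group means. HOXA2 and HOXD9 have all triangles below all circles, and the other 12 genes have all triangles above all circles.

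Summed over its members, every cluster had more reads with DZNep. The sum for cluster A was 322 ± 14.8 CPM (counts scaled to a common library size) in Control and 504 ± 69.8 with DZNep, and that for cluster B was 328 ± 56.1 and 485 ± 46.2. The sum for cluster C was 164 ± 34.2 and 325 ± 45.5, a mean log2 difference of 1.00, and that for cluster D was 211 ± 14.4 and 276 ± 7.94, a mean log2 difference of 0.39. The groups did not overlap for any of the 4 sums. These sums are dominated by the abundant members and carry no test. Of all HOX reads, cluster C took 15.8% ± 1.89 in Control and 20.4% ± 2.24 with DZNep, cluster D took 20.8% ± 2.22 and 17.4% ± 0.94, cluster A took 31.6% ± 2.44 and 31.7% ± 3.65, and cluster B took 31.8% ± 2.66 and 30.5% ± 1.83.

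**Figure D3:**
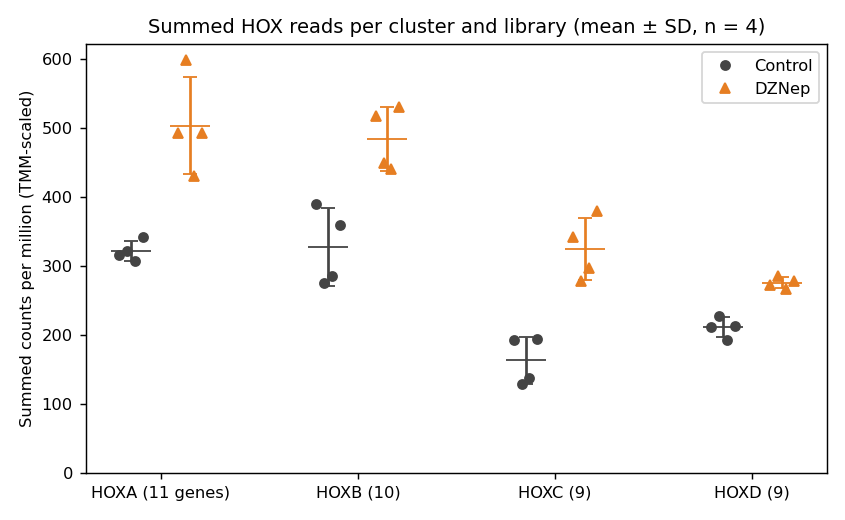
CPM summed over the members of each HOX cluster (vertical axis, from 0) in each library, with grey circles for Control and orange triangles for DZNep and the mean ± SD of n = 4 libraries. The DZNep points lie above the Control points in all 4 clusters.

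Called members were spread over the paralog numbers. Among all genes tested, 10.6% were called higher and 13.5% lower. Of the 7 tested members of groups 1 to 3, 3 were higher and 1 lower. Of the 15 of groups 4 to 8, 5 were higher and none lower (7 and 0 at an unadjusted edgeR p under 0.05), and of the 16 of groups 9 to 13, 5 were higher and 1 lower. Paralogs of one number were not all called together. In group 2 HOXA2 fell and HOXB2 rose, and in group 9 HOXD9 fell and HOXA9 rose, while HOXB9 and HOXC9 were at 0.46 and 0.67. In group 10 HOXC10 rose, with HOXA10 at -0.09 and HOXD10 at -0.31. In group 4 HOXA4 and HOXB4 rose, at 2.17 and 2.00, and HOXC4 and HOXD4 were at 0.14 and 0.48. All 3 members of group 11 were higher at an adjusted p under 0.05, with log2 fold changes of 1.10, 0.88 and 0.73, and none of the 3 members of group 8 was called or had an unadjusted edgeR p under 0.05, at 0.40, 0.33 and -0.02.

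The highest levels per length belonged to a few posterior genes and to HOXA5. In RPKM, reads scaled by exon length and library size, HOXB9 was at 74.2 ± 12.1 in Control and 102 ± 11.5 with DZNep. HOXA5, a lung and cervical gene, was at 46.4 ± 14.4 and 71.3 ± 11.9, and HOXD13 was at 43.5 ± 8.83 and 71.2 ± 4.42. HOXA5 and HOXD13 lay within each other's spread in both groups, whereas HOXB9 lay above both. HOXA10 was the fourth in Control, at 20.1 ± 0.692, and HOXC10 the fifth, at 17.6 ± 1.67, with HOXD10 at 16.8 ± 2.29 within its spread. With the same reads divided only by the length of exons of no other gene, HOXD10 was the fifth and HOXC10 the sixth. Reads over those exons were not counted apart. With DZNep HOXC10 was the fourth, at 62.2 ± 7.98, within the spread of HOXA5 but not that of HOXD13. HOXA10 then stood at position 10, at 18.9 ± 2.59. HOXD9 moved from position 15 to 30, HOXA2 from 33 to 38 and HOXA4 from 30 to 17. Over all exons the lowest detected members in Control were HOXD12, HOXC5, HOXC12 and HOXD1, at 0.138, 0.141, 0.171 and 0.233 RPKM. Their ranges over the Control libraries overlapped. By the length of exons of no other gene, with the same reads, HOXC5 moved from position 37 to 35, above HOXD3.

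**Figure D4:**
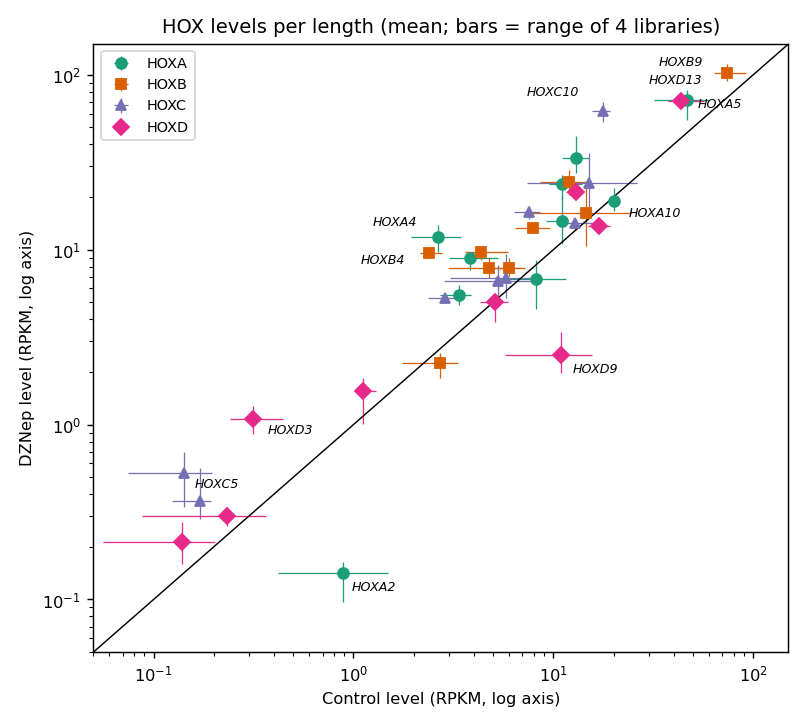
Mean level per length with DZNep (vertical) against Control (horizontal), in RPKM on log axes, for 37 of the 38 HOX genes with reads in Control, by cluster, with bars for the range of 4 libraries and a line of equal levels. HOXD9 and HOXA2 lie well below the line, and HOXC10, HOXA4, HOXB4, HOXD3 and HOXC5 well above it.

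Noncoding RNAs and small genes inside the clusters were listed as well, 26 found in the table, of which 20 were tested. Of these 2 were called higher and 3 lower, shares near the 10.6% and 13.5% of all genes, and their median log2 fold change was -0.03. HOXC13-AS, which starts 0.8 kb from HOXC13 on the opposite strand, had 398, 188, 235 and 263 in Control libraries 1 to 4 and 49.9, 50.7, 60.5 and 92.2 in DZNep libraries 1 to 4 (log2 fold change -2.13, SE 0.29, edgeR adjusted p = 0.000331), a 4.36-fold fall beside a gene that rose at 1.12. Every DZNep library was below the lowest Control library. HOXD-AS2 starts on the opposite strand, 0.5 kb from the outermost annotated start of HOXD3, which is not the start of the window shown. It was at 343 ± 111 in Control and 144 ± 15.7 with DZNep (log2 fold change -1.28, SE 0.24, edgeR adjusted p = 0.00195), beside a rise of HOXD3 at 1.78. Its exons overlap those of HOXD8, at -0.02, and of HOXD3. Its gene body spans HOXD9, which fell at -2.13, with no shared exonic base. HOXB-AS4 was at 238 ± 86.5 in Control and 101 ± 11.9 with DZNep (log2 fold change -1.26, SE 0.26, edgeR adjusted p = 0.00369).

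The 2 called higher were HOXA-AS2, at 133 ± 27.7 in Control and 309 ± 61.8 with DZNep (log2 fold change 1.18, SE 0.22, edgeR adjusted p = 0.00177), and HOXA-AS3, at 206 ± 57.2 in Control and 427 ± 140.4 with DZNep (log2 fold change 1.02, SE 0.27, edgeR adjusted p = 0.0121). Both overlap exons of HOXA3 and HOXA4, and HOXA-AS3 also those of HOXA6 and HOXA7. The shared 62.5% of the exonic bases of HOXA7 are all shared with HOXA-AS3. The sources used here do not say whether reads were counted by strand, and without strand the reads of a gene and its antisense partner cannot be told apart where they overlap. HOTAIR, a long RNA known for binding Polycomb proteins, was at 335 ± 40.1 in Control and 558 ± 50.6 with DZNep (log2 fold change 0.71, SE 0.15, edgeR adjusted p = 0.0037), below the fold limit. HAGLR, beside HOXD1, was at 653 ± 98.2 in Control and 414 ± 40.5 with DZNep (log2 fold change -0.69, SE 0.16, edgeR adjusted p = 0.00598). Of the tested RNAs that overlap other HOX genes called here, HOXA10-AS was at -0.11, HOXA11-AS at 0.35, HOXB-AS1 at 0.05, HOXB-AS3 at 0.25 and HOXC-AS3 at 0.82, and none was called.

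**Figure D5:**
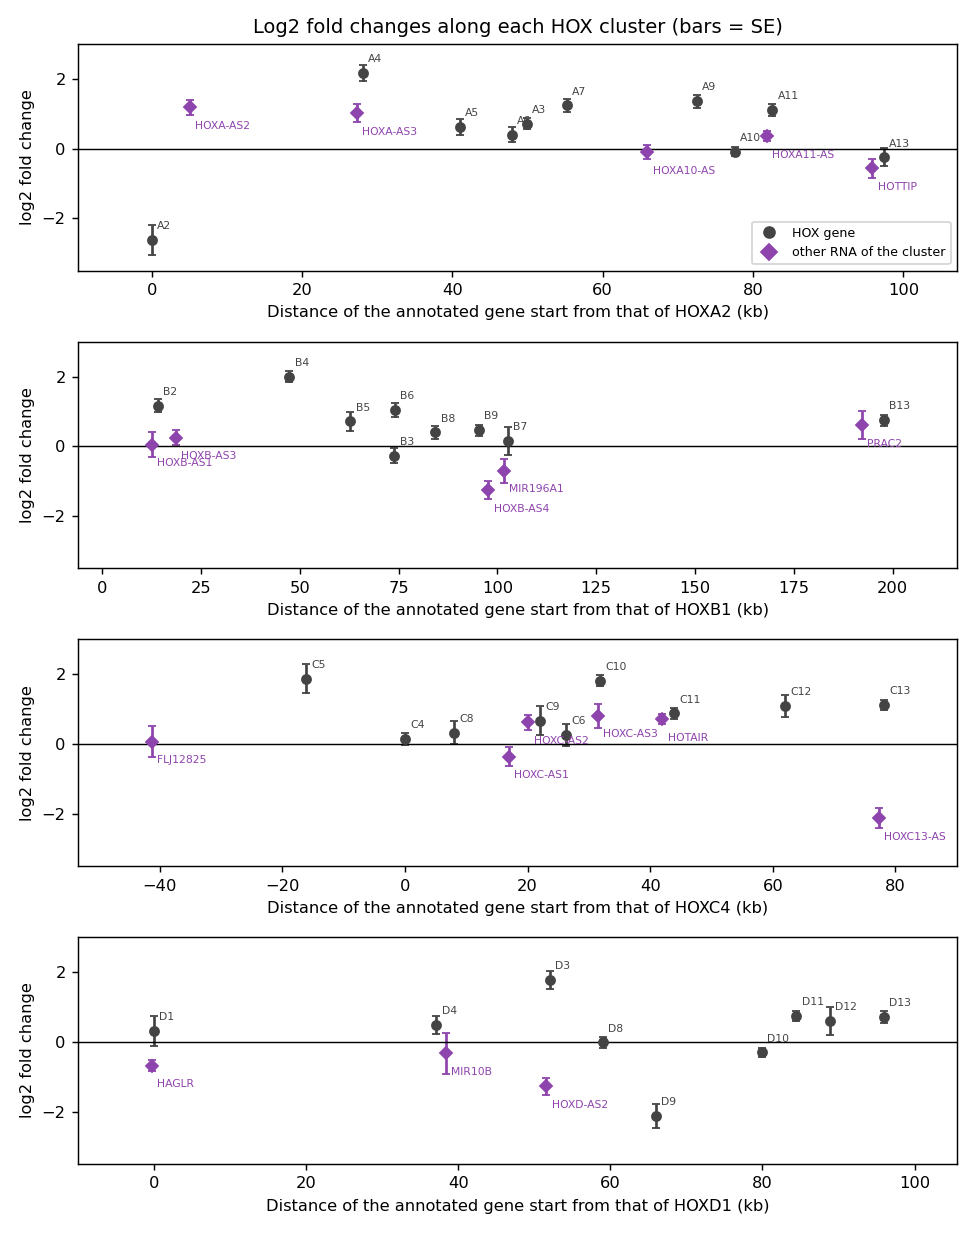
Log2 fold change (vertical axis, bars for the standard error) against the distance in kb of the annotated gene start from that of the gene named on the axis (horizontal axis), 1 panel per cluster. Circles are HOX genes and diamonds other RNAs of the cluster. HOXD9 lies below its neighbours on both sides and HOXA2 below HOXA4, and HOXC13-AS lies beside HOXC13 at -2.13 against 1.12. Annotated starts are the outermost of any transcript.

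The TALE homeodomain proteins (PBX, MEIS, PKNOX and TGIF) bind DNA together with HOX proteins. Of 11 tested, 1 was called higher and 1 lower, beside 10.6% and 13.5% of all genes, with a median log2 fold change of -0.12. PKNOX1 had 735, 1076, 984 and 759.6 in Control libraries 1 to 4 and 1807, 2285, 1691 and 1775 in DZNep libraries 1 to 4 (log2 fold change 1.06, SE 0.17, edgeR adjusted p = 0.000878). Its close relative PKNOX2 had 805, 747, 932 and 674 in Control libraries 1 to 4 and 270.3, 227, 252 and 189 in DZNep libraries 1 to 4 (log2 fold change -1.77, SE 0.17, edgeR adjusted p = 5.37e-05). The groups did not overlap for either gene, and the call of PKNOX1 was lost without Control library 1, Control library 4 or DZNep library 2. Below the fold limit, MEIS1 was higher at an adjusted p under 0.05 (log2 fold change 0.52) and MEIS3 was lower (-0.83).

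Of 20 tested genes that flank the clusters, none was called higher and 2 lower by edgeR, beside 10.6% and 13.5% of all genes. With no fold limit 3 were higher and 6 lower at an adjusted p under 0.05, beside 19.1% and 21.8%. At an unadjusted p under 0.05 the counts were 4 and 7, and DESeq2 also called none higher. HIBADH, a mitochondrial enzyme of valine breakdown on the 5′ side of cluster A, was at 2461 ± 197 in Control and 1088 ± 145 with DZNep (log2 fold change -1.21, SE 0.14, edgeR adjusted p = 0.000155). SNX10, a sorting nexin beyond the 3′ side of cluster A, was at 1073 ± 68.3 in Control and 489 ± 84.9 with DZNep (log2 fold change -1.16, SE 0.16, edgeR adjusted p = 0.00033). The median over the 20 was 0.02 on the log2 scale, beside 0.69 for the HOX genes.

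Library numbers moved together across groups for some members. In both groups, libraries 1 and 4 were above libraries 2 and 3 for 8 of 38 HOX genes, HOXA4, HOXA7, HOXB7, HOXB8, HOXB9, HOXC8, HOXC9 and HOXC10, as for 19.2% of all genes tested, and below them for 3, HOXA6, HOXA13 and HOXD1, as for 20.3%. Within numbered pairs the DZNep library was the higher in all 4 pairs for 23 of 38 HOX genes (33.8% of all genes) and the lower in all 4 for 3 (31.6%).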

How the data were processed

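RNA was extracted and sequenced by a service company (Azenta) from 4 Control and 4 DZNep libraries of HEK293T cells, as paired reads of 150 bp. Per the study's methods and the submitters' processing notes, reads were trimmed with Trimmomatic 0.36, aligned to GRCh38 with STAR 2.5.2b, and counted over exons as unique reads with featureCounts of Subread 1.5.2. The annotation release, library kit and strand setting are not given in the sources used here. The authors deposited counts per gene and a second table of normalized signal values, which are counts divided by a size factor for each library. All of its values (100%) gave back whole reads within 1e-06. Total counts ran from 25043058 to 44902779, and intervals or floors of counts cover counting error only.

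The deposited counts were tested in R 4.3.3 with edgeR 4.0.16 (TMM scaling, filterByExpr, quasi-likelihood test, Benjamini-Hochberg over 19171 genes), for DZNep against Control over all 8 libraries with no other term. Calls required an adjusted p under 0.05 and a log2 fold change above 1 or below -1. DESeq2 1.42.0 and limma 3.58.1 (pseudocount 1) were alternatives, with other scalings and filters and each library left out. The code was tested on simulated data. Levels per length used GENCODE v44 exons, and overlaps came from the same annotation, matched by gene identifier. Cluster sums used TMM-scaled CPM.

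Libraries with the same number deviated together, with correlations of 0.14, 0.49, 0.43 and 0.67 between their deviations from the group means over 19171 genes, each above 0.1, which was the criterion for taking the libraries as pairs. The pairing comes from these correlations and the label numbers. Some libraries of different numbers also deviated together. Control library 1 correlated at 0.53 with DZNep library 4, more than with DZNep library 1. Control library 2 was at 0.40 with DZNep library 3, and Control library 3 at 0.34 with DZNep library 2. All other correlations between different numbers were negative, from -0.68 to -0.02. The correlations alone therefore do not single out the numbered pairs. The main fit held no term for the pairs, because the study's methods describe none. Standard errors and adjusted p-values are from that fit unless the replicate number is named, and the fit with it was an alternative. No 2 libraries agreed within sampling noise (chi-square per degree of freedom at least 26.9). The study calls the libraries biological replicates, and the labels name no separate cultures, so p-values measure the spread between these libraries.

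The HOX genes and gene lists were chosen with earlier results of these data known. The lists were RNAs of the clusters, TALE cofactors, flanking genes, EVX and ParaHox genes, HOX regulators and 5 sets of cell type markers. Genes were named in full where a cluster's member was called (the 5 with the largest absolute fold change where there were more) or highest per length, and from each list up to 4 called genes with the largest change and those that overlap a named HOX gene. Other list genes that are named, such as MEIS1, CTCF and CDX2, were chosen after their values were seen. Proteins were not used here, and some genes are not reported here by name, though they are part of the counts and sums.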

Additional observations from a re-analysis of the deposited data

Results flagged for a closer look

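Within groups of 4 libraries, 5 of 77 groups of HOX values held a library whose gap to the nearest other, as a share of the group's range, was above Dixon's critical value. Chance alone gives about 1 in 20. HOXA6 was lowest in Control library 1, at 446 normalized counts, where the other 3 Control libraries lay between 559 and 573. HOXB13 was highest in DZNep library 1, at 1632, with the others between 1500 and 1510. HOXD8 was lowest in DZNep library 2, at 389 beside 525 to 553. HOXC12 was highest in DZNep library 3, at 70.0 beside 36.2 to 39.4, and its call was lost without that library or without Control library 2. HOXB1 was at 1.73 in DZNep library 3 and at 0 in the others, from 2 reads.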

How the results depend on the processing

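The 13 HOX genes called higher and 2 lower were the same genes under DESeq2, limma, median-ratio factors, library sizes alone, no filter, reads recovered from the normalized table and the replicate block. With the replicate block the counts were again 13 and 2, and of the calls described the block lost only that of PSIP1. A minimum of 10 reads in every library gave 12 higher, without HOXC5. Leaving out 1 library gave 11 to 13 higher and 2 lower, 1 to 2 cluster RNAs higher, 0 to 1 TALE gene higher, and 1 to 2 regulators higher and 0 to 1 lower. When the test was against a log2 fold change of 1, a stricter question, 4 HOX genes were higher. They were HOXA4, HOXB4, HOXC10 and HOXD3, 1 in each cluster. There were then 0 cluster RNAs higher and 1 lower, 0 TALE genes higher, 0 flanking genes lower and 0 regulators lower. With no fold limit there were 5 higher in cluster B and 3 in cluster D, 4 cluster RNAs higher, 3 TALE genes higher and 2 lower, 3 flanking genes higher and 6 lower, and 5 regulators higher and 4 lower. DESeq2 and no filter each called 1 EVX or ParaHox gene higher, the low-count MEOX2. No regulator was lower (0) under DESeq2, median-ratio factors, library sizes alone, no filter, at least 10 reads, the block or limma. The log2 difference of the cluster D sum was 0.47 with library sizes alone and 0.24 as a mean over members. HOXC10 in Control was at 19.5 RPKM when all its reads were divided by its unshared exon length alone. The causes were not tested. Of the single genes and their alternatives, 789 values kept their side of the threshold, 41 lost it and no called value changed direction. Depth limits HOXD12, HOXD1, HOXC5, HOXC12 and HOXA2 most, and HOXB1 could not be tested.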

Other observations

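Of 20 genes known to regulate HOX clusters, 1 was called higher and 1 lower by edgeR, beside 10.6% and 13.5% of all genes tested, and 5 and 4 passed an adjusted p under 0.05 with no fold limit, beside 19.1% and 21.8%. CYP26A1, which breaks down retinoic acid and is itself induced by it, had normalized counts of 122, 171, 138 and 143 in Control libraries 1 to 4 and 347, 509, 429 and 418 in DZNep libraries 1 to 4 (log2 fold change 1.54, SE 0.18, edgeR adjusted p = 0.000138). The groups did not overlap. PSIP1, a chromatin reader that helps MLL complexes bind, was at 17820 ± 4536 in Control and 9020 ± 958 with DZNep (log2 fold change -1.01, SE 0.20, edgeR adjusted p = 0.00266), a call that was lost in most alternatives, over which its log2 fold change ran from -1.11 to -0.85. Below the fold limit, the boundary factor CTCF was at 0.91 and the cohesin subunit RAD21 at 0.76 on the log2 scale. KMT2A, which encodes MLL1, was at -0.51 and its partner MEN1 at 0.43, and the H3K27 demethylase genes KDM6A and KDM6B were at 0.22 and -0.36 and were not called.

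Of 13 EVX, ParaHox and related homeobox genes, 6 were tested and none was called by edgeR, with 1 at an unadjusted p under 0.05. CDX2, a regulator of posterior HOX genes in the gut and trunk, was at 1161 ± 162 in Control and 1218 ± 190.3 with DZNep (log2 fold change 0.04, SE 0.16, edgeR adjusted p = 0.862), and its groups overlapped. MEOX2, a mesoderm gene, had 0 counts in all 4 Control libraries and between 1 and 8 in the DZNep libraries, and did not pass the filter on low counts.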
